A study of Homo sapiens with 32 samples.

Results

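Chromosome 19 carries a dense assembly of C2H2 zinc-finger (ZNF) genes, whose m6A peaks on chromatin-associated RNA are described here. Members were the protein-coding RefSeq genes on chromosome 19 whose symbol is ZNF followed by digits. There were 246 of them among 19974 protein-coding genes, 83 on the short arm (19p) and 163 on the long arm (19q). The 4 hyphenated symbols (ZNF559-ZNF177, ZNF816-ZNF321P, ZNF765-ZNF761 and ZNF470-DT) were left out. A peak belonged to a member if it overlapped the gene body by 1 bp, on either strand.

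MeRIP-seq, an antibody pull-down of RNA fragments bearing N6-methyladenosine (m6A), had been done in duplicate on 4 cell lines. The ovarian cancer lines were OVCAR8 and SKOV3, while the labels call LOVO and RKO colon adenocarcinoma cells. In each line a METTL3 knockdown group, titled shMETTL3, was set against a group of genotype WT, titled shControl in the ovarian lines and Control in LOVO and RKO. METTL3 is the methyltransferase that writes most m6A on messenger RNA. The design names chromatin-associated RNA throughout, whereas the molecule label of LOVO and RKO is total RNA. The knockdown of METTL3 itself could not be checked in peak lists. The 12 peak lists comprised 2 knockdown and 2 control lists each for OVCAR8 and SKOV3, and 1 knockdown and 1 control list each for LOVO and RKO, which therefore have no replicate check. The labels do not state whether replicates were separate cultures, so p-values below measure only the spread between lists, which may be technical. A list held 15484 to 37398 peaks, read totals are unknown here, and no interval below covers more than counting error. A peak shows methylation on a transcript that is present, so more methylation and more RNA cannot be told apart in these lists.

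Most human C2H2 zinc-finger proteins with a KRAB domain are repressors that bind DNA, often within transposable elements. Their KRAB domain recruits TRIM28, which brings the histone methyltransferase SETDB1, and the pair sets up silent chromatin. The chromosome 19 genes arose by tandem duplication, so neighbours resemble each other closely. Many carry the whole zinc-finger array and the 3′ untranslated region in a long last exon, the kind of exon where m6A is usually dense. The treatment of reads that match several of these copies is not stated in the labels, so peaks of near-identical members are uncertain.

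In the ovarian lines, the sharing of member peaks between lists did not follow the labels in every comparison. The libraries labelled OVCAR8 knockdown had 99.6% of their member peaks in common with SKOV3 control, and 65.8% with OVCAR8 control (averages of 4 list pairs). The libraries labelled SKOV3 knockdown shared 83.1% with OVCAR8 control and 87.5% with SKOV3 control. In the other direction, 90.8% of the OVCAR8 control peaks were shared with the libraries labelled SKOV3 knockdown and 72.3% with those labelled OVCAR8 knockdown. With SKOV3 control, OVCAR8 control shared 88.6%. Replicates of a group shared 90.1% to 93.1%. The list labelled RKO knockdown shared 54.4% of its member peaks with RKO control and 53.8% with SKOV3 control, and RKO control shared 73.7% with RKO knockdown and 63.5% with SKOV3 control. The list labelled LOVO knockdown shared 85.6% with LOVO control, while LOVO control shared 68.5% with LOVO knockdown and 86.02% with RKO control. A share is over the peaks of the first list named and grows with the length of the other list. Groups are kept as labelled, and each direction within OVCAR8 or SKOV3 rests on lists that these values call into question.

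In the 2 LOVO lists a block of neighbouring members had no peak at all, and the promoters of 2 of these genes are shown beside those of 2 members marked in all 12 lists. Each is the RefSeq promoter window of GRCh38.p14, 250 bases before to 50 bases after a start in the table, read on the gene's strand. That start was the first base of the gene body for 173 of the 216 members with a window, ZNF567, ZNF83 and ZNF780B among them, and over 1 kb inside the body for 31. For ZNF420 it lay 70.5 kb inside the body, so its window is not at the body's start. CG pairs, the sites of DNA methylation, are in capitals. ZNF420 (chr19:37078183-37078482, plus strand) and ZNF567 (chr19:36666684-36666983, plus strand) are from the unmarked block. ZNF83 (chr19:52690447-52690746, minus strand) and ZNF780B (chr19:40056182-40056481, minus strand) are marked in every list.
ZNF420: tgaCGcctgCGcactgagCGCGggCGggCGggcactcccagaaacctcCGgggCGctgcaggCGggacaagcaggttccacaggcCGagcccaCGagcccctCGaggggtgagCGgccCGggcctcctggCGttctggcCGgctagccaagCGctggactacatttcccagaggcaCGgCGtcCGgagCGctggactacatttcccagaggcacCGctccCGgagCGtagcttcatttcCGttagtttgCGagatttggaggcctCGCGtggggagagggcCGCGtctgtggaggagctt
ZNF567: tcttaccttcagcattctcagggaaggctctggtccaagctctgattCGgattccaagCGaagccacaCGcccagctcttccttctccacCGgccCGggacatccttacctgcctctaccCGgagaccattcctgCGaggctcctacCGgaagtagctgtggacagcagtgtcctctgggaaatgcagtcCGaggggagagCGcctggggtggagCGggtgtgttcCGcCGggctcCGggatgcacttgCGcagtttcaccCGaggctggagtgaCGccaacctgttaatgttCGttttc
ZNF83: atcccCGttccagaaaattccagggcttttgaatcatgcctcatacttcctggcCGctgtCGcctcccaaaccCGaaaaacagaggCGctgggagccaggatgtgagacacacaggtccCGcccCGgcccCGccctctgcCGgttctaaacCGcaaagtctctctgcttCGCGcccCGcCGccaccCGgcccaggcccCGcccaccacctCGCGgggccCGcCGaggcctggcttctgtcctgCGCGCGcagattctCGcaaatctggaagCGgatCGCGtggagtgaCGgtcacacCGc
ZNF780B: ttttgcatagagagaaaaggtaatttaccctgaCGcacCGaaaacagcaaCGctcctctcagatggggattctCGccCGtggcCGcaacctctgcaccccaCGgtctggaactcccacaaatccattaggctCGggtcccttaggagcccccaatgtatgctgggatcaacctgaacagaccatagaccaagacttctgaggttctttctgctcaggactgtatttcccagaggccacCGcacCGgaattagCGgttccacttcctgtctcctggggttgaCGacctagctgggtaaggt
The windows held 30 CG pairs in ZNF420 and 18 in ZNF567, against 29 in ZNF83 and 12 in ZNF780B.

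Peaks were found on 238 of the 246 members in at least 1 list. In the ovarian lists labelled knockdown, 172 and 169 members had a peak in OVCAR8 and 142 and 143 in SKOV3, against 136 and 135 in OVCAR8 control and 209 and 206 in SKOV3 control. The colorectal lists had 91 in LOVO knockdown against 103 in LOVO control, and 225 in RKO knockdown against 187 in RKO control. LOVO thus had the fewest marked members and RKO knockdown the most. Over the 12 lists, 37.0% to 91.5% of members had a peak, a wider range than the 31.1% to 48.6% of the 1201 other protein-coding genes of chromosome 19. Of the 264 protein-coding ZNF genes on other chromosomes, 61.0% to 83.7% had a peak. Over all protein-coding genes the share was 29.0% to 48.0%.

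The number of distinct peaks in members followed the same order. It was 355 and 346 in OVCAR8 knockdown against 295 and 303 in OVCAR8 control, and 317 and 301 in SKOV3 knockdown against 500 and 481 in SKOV3 control. It was 243 in LOVO knockdown against 279 in LOVO control, and 652 in RKO knockdown against 472 in RKO control. In OVCAR8, members averaged 350.5 ± 6.36 peaks in knockdown and 299 ± 5.66 in control (SD, n = 2 each), a ratio of 1.17, while the ratio over all peaks of the lists was 0.548. In SKOV3 they averaged 309 ± 11.3 in knockdown and 490.5 ± 13.4 in control (SD, n = 2 each), a ratio of 0.630, against 0.914 over all peaks. The ratio was 0.871 in LOVO, against 0.857 over all peaks, and 1.38 in RKO, against 0.910. The knockdown and control lists did not overlap in either ovarian line, although with 2 lists a group an exact permutation test cannot give a two-sided p below 0.33. A marked member carried 2.11 to 2.99 peaks on average, against 2.47 to 3.68 for a marked protein-coding gene. For marked ZNF genes elsewhere it was 2.62 to 3.55. Per list, 8 to 39 of the 246 members carried 5 or more, and 673 to 2436 of the 19974 protein-coding genes did.

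**Figure D1:**
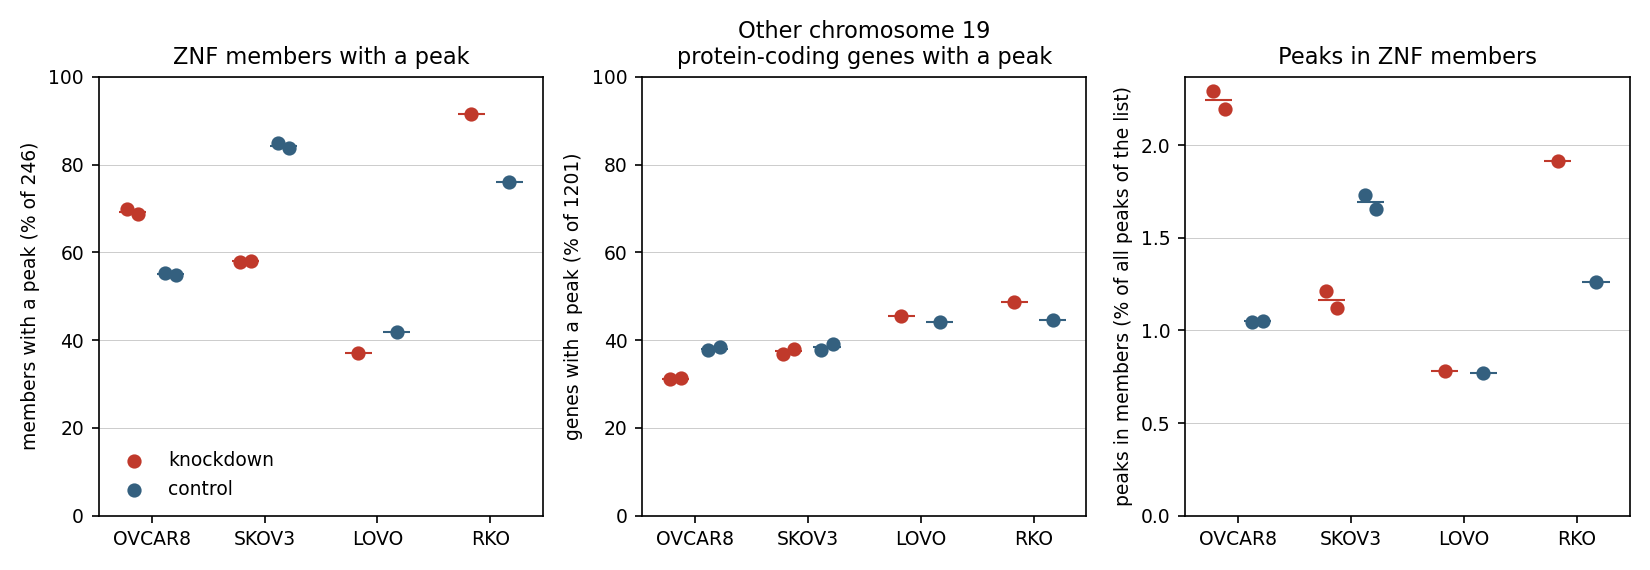
Each point is a peak list, knockdown left of control within each line, and short bars are group means. The left and middle panels give the percent of the 246 ZNF members and of the 1201 other chromosome 19 protein-coding genes with a peak. The right panel gives peaks in members as a percent of all peaks in the list. Members ranged from 37.0% in LOVO knockdown to 91.5% in RKO knockdown, the other genes from 31.1% to 48.6%.

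Peaks that fell in several genes were 15.9% to 23.9% of a list's member peaks (54 to 133 peaks). Of these, 10 to 20 peaks per list lay in more than 1 member and were counted for each. ZNF28 lies within the body of ZNF600, and their values share peaks. The same holds for ZNF132 within ZNF324B and ZNF700 within ZNF69, among others. Over all protein-coding genes, peaks in several genes made up 13.5% to 16.7%. For 216 members the reference gives a strand, and 4.28% to 8.49% of the peaks there were on the opposite strand in 11 of the lists. RKO knockdown had 101 such peaks (16.8%) against 30 in RKO control (7.09%). Over all protein-coding genes the share was 17.1% in RKO knockdown against 8.44% in RKO control.

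ZNF83 had the highest mean peak number, 10.7 per list. It carried 10 and 9 peaks in OVCAR8 knockdown against 8 and 8 in control, and 11 and 10 in SKOV3 knockdown against 10 and 11 in control. It carried 15 in LOVO knockdown against 12 in control, and 7 in RKO knockdown against 17 in control. Its 8 ovarian lists stayed between 8 and 11, and the RKO lists differed by 10 peaks. ZNF780B followed with a mean of 7.17, with 5 to 9 peaks in the ovarian lists, 9 in LOVO knockdown against 12 in control, and 7 in RKO knockdown against 6 in control.

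Next came ZNF600 (mean 6.25), ZNF324B (5.92), ZNF611 (5.83, whose protein is known to bind SVA retrotransposons), ZNF324, ZNF160 (4.92) and ZNF221 (4.83). ZNF221 had 4 to 8 peaks in each ovarian list and 6 in both RKO lists but 0 in both LOVO lists. ZNF324B had 14 peaks in RKO knockdown against 7 in RKO control. These include the 3 and 1 peaks of ZNF132, which lies within it. ZNF83, ZNF611, ZNF600 and ZNF160 lie within 52612377 to 53103422 of chromosome 19 (GRCh38), in the same cluster.

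The 82 shortest members (2.47 to 17.5 kb) had a mean of 1.30 peaks, the 82 of middle length 1.64 and the 82 longest (29.8 to 488 kb) 1.84. Of members with a peak in all 12 lists, 22 were among the shortest, 28 in the middle and 19 among the longest.

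A peak in every list was found for 69 members, a count that was not made over all protein-coding genes. By strength within the lists (rank of the authors' −log10 p in the ovarian lists and of their score in the colorectal lists), ZNF121, ZNF324, ZNF507, ZNF224, ZNF417 and ZNF83 led, with a mean percentile of 93.8 to 96.5 for their strongest peak. ZNF224 and ZNF417 had just 1 to 3 peaks in any list, so high rank did not need many peaks. No peak was found in any list for 8 members, ZNF414, ZNF729, ZNF98, ZNF99, ZNF723, ZNF575, ZNF541 and ZNF534. ZNF729, ZNF98, ZNF99 and ZNF723 lie close together in the pericentromeric part of 19p. ZNF536, a neural repressor gene, had 6 peaks in RKO knockdown and 0 in the other 11 lists.

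Members fell into 16 clusters when a gap of over 1 Mb between neighbours started a new cluster. The 7 large clusters held 225 of the 246 members. On 19p these were cluster 2 (15 members, ZNF557 to ZNF846), cluster 3 (25, ZNF653 to ZNF791) and cluster 5 (37, ZNF101 to ZNF254, chr19:19668153-24129968). On 19q they were cluster 9 (26, ZNF565 to ZNF573, chr19:36182060-37779586), cluster 12 (24, ZNF575 to ZNF296), cluster 15 (39, ZNF175 to ZNF331, chr19:51571283-53580269) and cluster 16 (59, ZNF628 to ZNF446, chr19:55476617-58489533).

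Members on 19q carried more peaks than those on 19p in each of the 12 lists. The range was 1.21 to 3.15 peaks per member on 19q against 0.699 to 1.92 on 19p. The share of members with a peak was also higher on 19q in 11 of the lists. In RKO control it was 75.5% on 19q against 77.1% on 19p. Cluster 15, which holds ZNF83, was the most evenly marked large cluster. It had a peak on 32 and 32 of 39 members in OVCAR8 knockdown against 26 and 26 in control, on 27 and 26 in SKOV3 knockdown against 37 and 36 in control, on 22 in LOVO knockdown against 24 in control and on 37 in RKO knockdown against 32 in control.

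**Figure D2:**
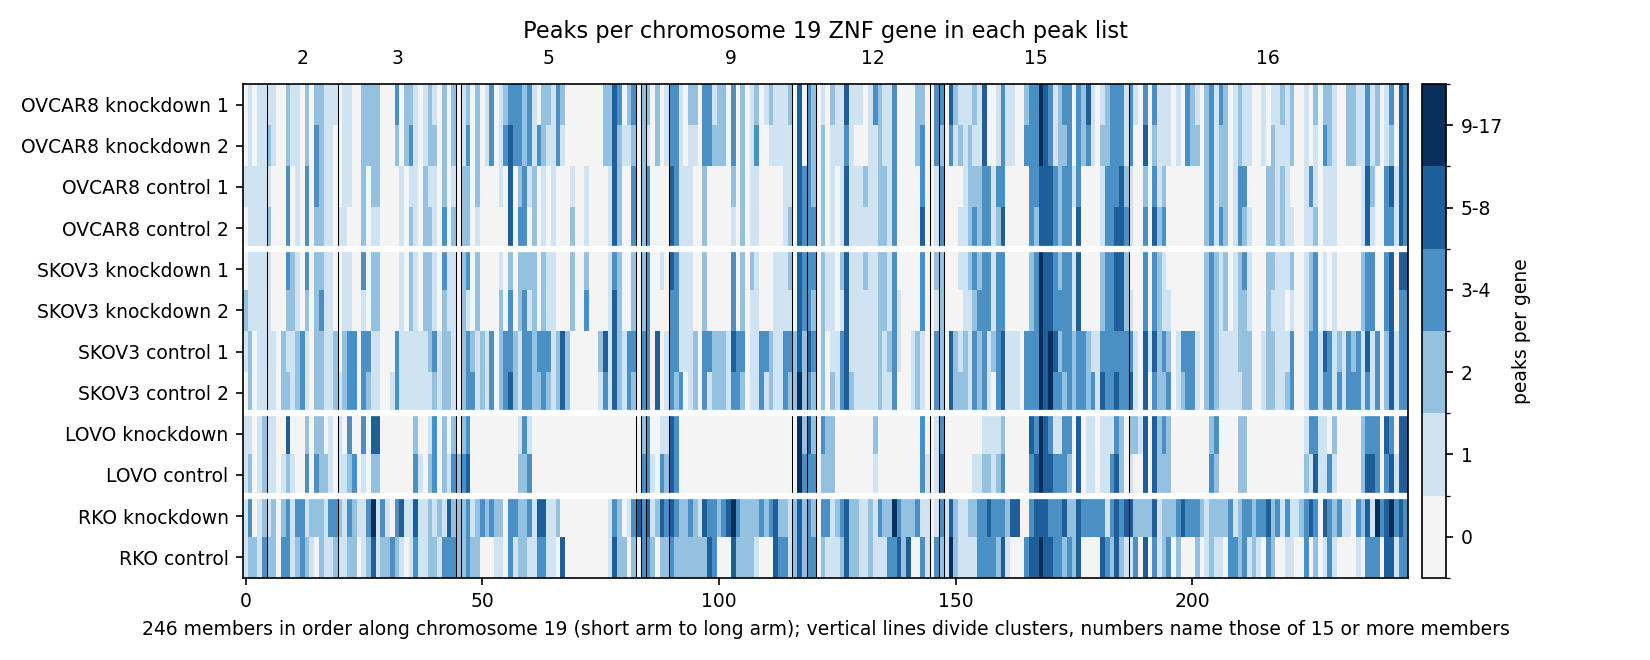
Peaks per gene for all 246 members (columns, in order along the chromosome from the short to the long arm) in the 12 lists (rows, knockdown above control in each line). Shading gives 0 to 17 peaks per gene, vertical lines divide the 16 clusters and the numbers name the 7 large ones. The LOVO rows are empty over most of clusters 5 and 9, while cluster 15 is marked in every row.

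The LOVO lists differed from all the others along the chromosome. In cluster 9, 2 of 26 members had a peak in LOVO knockdown and 2 in LOVO control. The same cluster had a peak on 20 and 19 members in OVCAR8 knockdown against 12 and 12 in control, on 14 and 14 in SKOV3 knockdown against 24 and 23 in control, and on 26 in RKO knockdown against 20 in control. In cluster 5, 5 of 37 members had a peak in LOVO knockdown and 5 in LOVO control, whereas the other 10 lists had 15 to 30. In cluster 12, 5 of 24 had a peak in LOVO knockdown and 6 in LOVO control, and 14 to 23 in the other lists. Knockdown and control gave the same sparse pattern in LOVO.

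The longest run of neighbouring members with no LOVO peak reached from ZNF566 to ZNF546 (chr19:36445119-40021038, GRCh38), 25 members with 0 peaks in both LOVO lists. In the other lines, these 25 members had a peak on 25 in RKO knockdown against 19 in RKO control, on 18 and 17 in OVCAR8 knockdown against 10 and 10 in control, and on 12 and 12 in SKOV3 knockdown against 23 and 22 in control. The longest run without a peak was 10 in RKO knockdown and 9 in RKO control, and 6 to 8 in the ovarian groups. ZNF565 and ZNF146, the members just before the run, overlap each other and had 5 and 4 peaks in LOVO knockdown and 5 and 4 in LOVO control. ZNF420, known as an inhibitor of p53, had 12 peaks in RKO knockdown against 6 in RKO control, 1 to 5 in the ovarian lists and 0 in both LOVO lists. The 2 other protein-coding genes between ZNF566 and ZNF573 were ZFP30, also a zinc-finger gene, and LOC124904708, and neither had a LOVO peak. ZFP30 had 2 or 3 peaks in the other 10 lists. LOC124904708 also had 0 peaks in both OVCAR8 control lists, both SKOV3 knockdown lists and RKO control. Other genes between ZNF573 and ZNF546 were not examined.

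No LOVO peak was found on 141 members in all. Of these, 36 had a peak in all 10 other lists, 9 each in clusters 5 and 9 and 8 in cluster 12. ZNF91, whose protein represses SVA retrotransposons, is among them, with 4 to 7 peaks in each ovarian list, 4 in RKO knockdown, 6 in RKO control and 0 in both LOVO lists. ZNF93, whose protein is known to repress LINE-1 elements, was chosen for that role. It had 0 peaks in the OVCAR8 and SKOV3 knockdown lists, 0 in OVCAR8 control and 2 and 2 in SKOV3 control, 0 in both LOVO lists, and 3 in RKO knockdown against 0 in RKO control. No member had a peak in LOVO alone. These counts of members with and without LOVO peaks were not made over other genes. Most protein-coding genes also had no peak in a given LOVO list. In LOVO knockdown 44.5% of all protein-coding genes had a peak, against 37.0% of members and 66.3% of ZNF genes elsewhere. In LOVO control these shares were 47.1%, 41.9% and 72.3%.

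**Figure D3:**
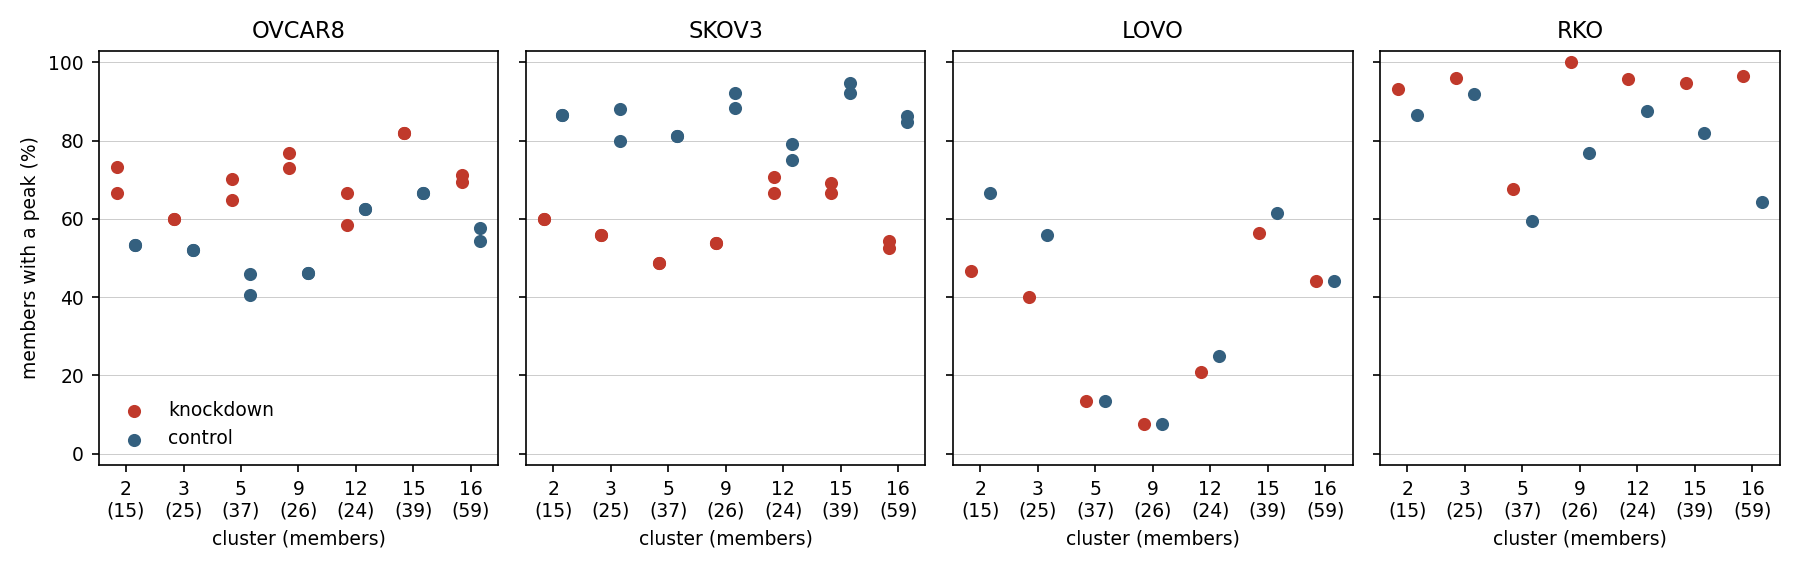
Percent of members with a peak (vertical axis) in the 7 large clusters (horizontal axis, number of members in brackets), 1 panel per line and 1 point per list, knockdown left of control. In LOVO, 5 of 37 members of cluster 5 and 2 of 26 of cluster 9 were marked in either list, while RKO knockdown marked 26 of 26 in cluster 9.

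Promoter letters gave no simple divide between the LOVO-unmarked block and the rest. CG pairs per window had a median of 21 in the 24 block members with a window, 20 over all 216 members and 22 over 15813 protein-coding promoters. Members with a peak in both LOVO lists had a median of 23 (79 windows), and those with none in LOVO but peaks in 5 or more of the other 10 lists had 19 (77 windows). The ETS letters CCGGAAGT, searched on both strands, were in 20.8% of member windows (45 of 216), against 6.20% of all protein-coding promoters. They were in 6 of the 24 block windows, ZNF567 among them. TGACGTCA (CRE) was in 3.24% of member windows and 2.59% of all, the NRF1 motif in 2.31% and 1.76%, and the YY1 motif in 0.926% and 1.37%. A match describes the letters in these windows and is not a bound site.

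Few peaks lay on these windows. An own-strand peak overlapped 2 to 6 of the 216 windows in 11 of the lists and 16 in RKO knockdown, against 5 in RKO control. The window of ZNF841 held a peak in 10 lists and that of ZNF83, printed above, in 7.

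Peaks in members lay close to the 3′ end of the gene. Of own-strand peaks, 43.9% to 57.6% had their midpoint in the last 5 kb of the gene body, although that stretch was 16.7% to 19.8% of the bodies. The share was 33.2% to 45.3% for the other protein-coding genes of chromosome 19, whose last 5 kb were 16.3% to 18.6% of their bodies, and 33.8% to 45.04% for ZNF genes on other chromosomes, whose last 5 kb were 10.2% to 12% of their bodies. Over all protein-coding genes it was 21.9% to 29.6%, where the last 5 kb were 5.34% to 6.67% of the bodies. The members had the highest share in each of the 12 lists, while the last 5 kb also took up more of their bodies than in those other ZNF genes or in all protein-coding genes. LOVO was lowest, with 43.9% in knockdown and 47.3% in control. RKO had 55.3% in knockdown and 51.1% in control, OVCAR8 57.2% and 57.2% in knockdown and 56.03% and 57.6% in control, and SKOV3 55.6% and 55.4% in knockdown and 52.6% and 50.9% in control.

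Within the last 5 kb, the bins from 1 to 2 kb and from 2 to 3 kb before the end held the most peaks, medians over lists of 14.5% and 12.9%. The last 1 kb held 9.47%. In LOVO control it led instead, with 11.4% against 10.5% at 1 to 2 kb. In the other chromosome 19 genes the last 1 kb led, with 12.3%, and the next 2 bins held 8.64% and 6.42%. ZNF genes on other chromosomes had the order of the members, with 7.78% in the last 1 kb and 8.80% and 8.72% in the next 2 bins. The first 1 kb of the gene held 5.11% to 10.7% of member peaks. RefSeq exons were not used here, so peaks could not be placed in untranslated regions or coding sequence.

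**Figure D4:**
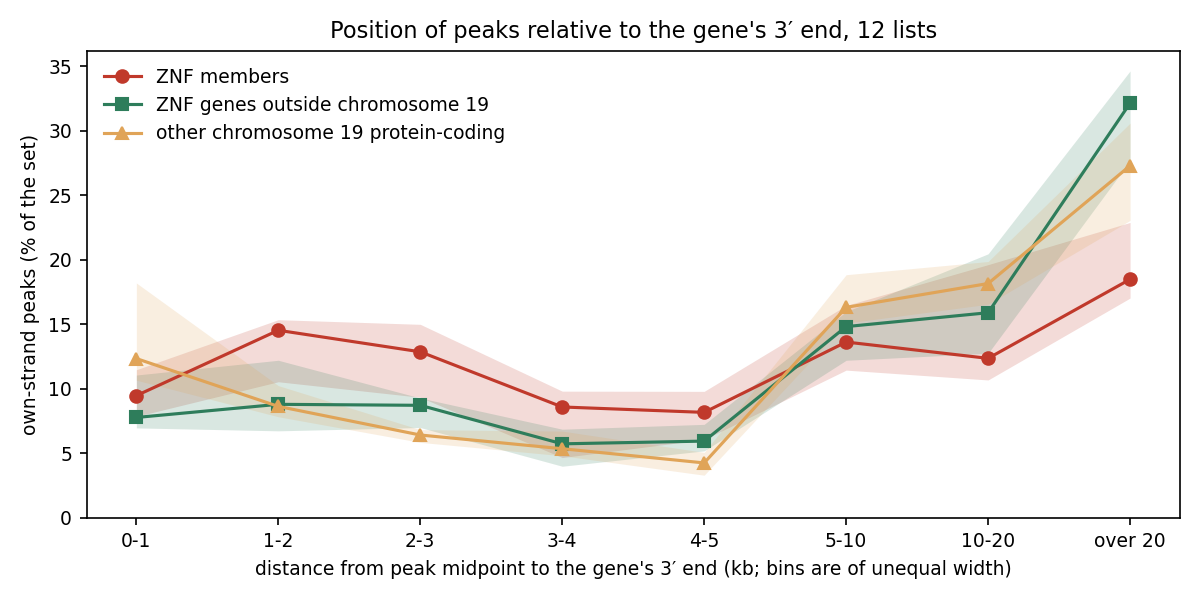
Percent of own-strand peaks (vertical axis) by distance from the peak's midpoint to the gene's 3′ end (horizontal axis, kb, bins of unequal width) for members, ZNF genes on other chromosomes and other chromosome 19 protein-coding genes. Lines are medians over the 12 lists and bands run from the lowest to the highest list. Among the 1 kb bins, members are highest at 1 to 2 kb. Their median there is 14.5%, against 8.80% for ZNF genes elsewhere and 8.64% for the other chromosome 19 genes. The open bin over 20 kb holds more member peaks (median 18.5%).

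Member peaks were wider than those of other chromosome 19 genes in each list. Their median width was 332 to 552.5 bp per list, against 271 to 324.5 bp in other chromosome 19 genes and 321.5 to 432.5 bp in ZNF genes elsewhere. In the second OVCAR8 knockdown list (344 against 344.5 bp) and the first SKOV3 control list (426.5 against 429 bp) members were below ZNF genes elsewhere. They were above them in the other lists. Peaks of at least 2 kb made up 0.823% to 8.47% of member peaks, most in RKO, with 42 in knockdown and 40 in control. The share was 0.880% to 1.91% over all protein-coding genes and 0.905% to 5.87% in ZNF genes elsewhere. The lowest member share, in LOVO knockdown, was below the 0.929% of all protein-coding genes there. RKO peaks in the last 5 kb had median widths of 693 bp in knockdown and 814 bp in control, against 362 and 468 bp elsewhere in the body. The order was the reverse in the first OVCAR8 knockdown list (336 against 348.5 bp) and the second OVCAR8 control list (399 against 404 bp), and the same in the other 8 lists. The widest was an 8356 bp peak in ZNF69 in RKO control (chr19:11904567-11912922, plus strand), which overlaps 2 genes. ZNF865 had a peak of 4002 bp in RKO knockdown, ZNF91 had 3806 bp in an OVCAR8 control list and ZNF347 had 3645 bp in RKO knockdown.

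Loss of control peaks was then followed per line. Overlapping peaks on 1 strand were merged to a region if all lists of the group had them, and a control region was lost if no knockdown peak overlapped it by 1 bp. The intervals below are exact binomial 95% intervals and cover counting only. In OVCAR8, 56 of 259 member regions were lost (21.6%, 16.8% to 27.1%), where over all genes 56.7% were lost. In SKOV3, 188 of 438 were lost (42.9%, 38.2% to 47.7%), close to the 42.2% over all genes. In LOVO, 88 of 279 were lost (31.5%, 26.1% to 37.3%), where over all genes 36.9% were lost. In RKO, 124 of 472 were lost (26.3%, 22.4% to 30.5%), where over all genes 59.6% were lost. The share lost in members was below that of all genes in OVCAR8 and RKO, and within 1 percentage point of it in SKOV3. In OVCAR8 and RKO, ZNF genes elsewhere (32.8% and 41.8%) and other chromosome 19 protein-coding genes (44.3% and 47.4%) were also below all genes. In SKOV3 and LOVO, ZNF genes elsewhere lost 38.9% and 32.4%, and other chromosome 19 protein-coding genes 31.5% and 24.8%. None of these differences was tested.

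Regions present in knockdown and in no control list were counted as gained. In OVCAR8, 91 of 311 member regions were gained (29.3%), against 24.3% over all genes. In SKOV3, 26 of 276 were gained (9.42%), against 35.5%. In LOVO, 35 of 243 were gained (14.4%), against 26.9%. In RKO, 297 of 652 were gained (45.6%), against 51.9%. Cluster 16 stood highest in RKO, with 120 of 182 of its knockdown regions gained (65.9%), against 9.09% to 43.2% in the other clusters with 10 or more regions.

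The share lost was higher among weak than among strong member regions in all 4 lines. Among regions in the strongest tercile of all control regions, members lost 2 of 88 in OVCAR8 (2.27%), 2 of 109 in LOVO (1.83%), 26 of 223 in RKO (11.7%) and 39 of 169 in SKOV3 (23.1%). Over all genes these shares were 33.0%, 13.1%, 38.8% and 24.2% in the same order of lines. In the weakest tercile, members lost 41.6% in OVCAR8, 58.7% in LOVO, 40.5% in RKO and 68.9% in SKOV3, where all genes lost 75.5%, 58.02%, 75.8% and 58.4%. In SKOV3 the share of strong regions lost was near that of all genes, and in the other lines it was below it.

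**Figure D5:**
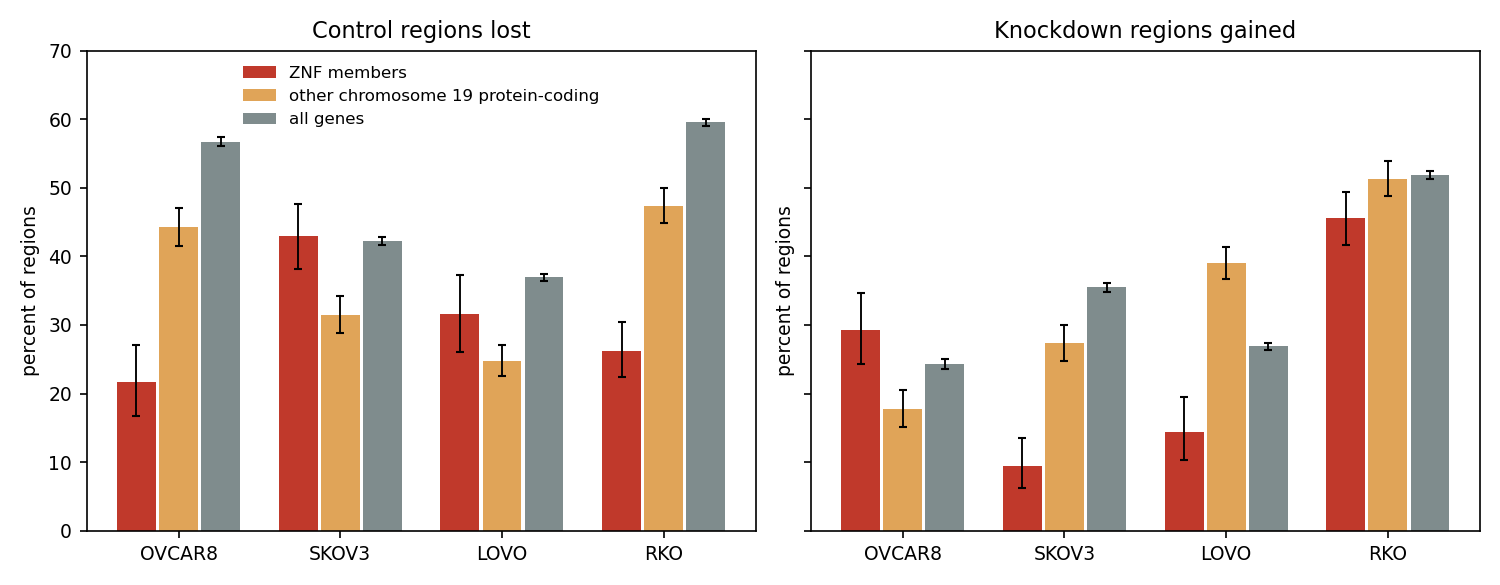
Percent of control regions lost (left) and of knockdown regions gained (right) in each line for members, other chromosome 19 protein-coding genes and all genes. Bars are percents and error bars exact binomial 95% intervals. Members lost 21.6% in OVCAR8 and 26.3% in RKO, against 56.7% and 59.6% over all genes, and 42.9% in SKOV3, against 42.2%.

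Whole genes also lost or acquired their peaks. A gene was emptied if it had a peak in every control list and in no knockdown list, and newly marked in the reverse case. In OVCAR8, 12 of 131 members were emptied (9.16%), against 29.5% of protein-coding genes, and 44 of 167 were newly marked (26.3%), against 14%. In SKOV3, 67 of 204 were emptied (32.8%), against 20.7%, and 4 of 139 were newly marked (2.88%), against 16%. In LOVO, 14 of 103 were emptied (13.6%), near the 12.7% of protein-coding genes, and 2 of 91 were newly marked (2.2%), against 7.37%. In RKO, 5 of 187 were emptied (2.67%), against 22%, and 43 of 225 were newly marked (19.1%), near the 20.7% of protein-coding genes. The largest number of emptied members was in SKOV3.

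Members with the most lost or gained regions are named here, with ties settled by order along the chromosome. In OVCAR8, lost regions were most numerous in ZNF616 (4 of 4 control regions), ZNF600 (4 of 7), ZNF91 (3 of 5) and ZNF780A (3 of 3), and gained ones in ZNF850, ZNF577 and ZNF347 (4 of 4 each). In SKOV3, they were most numerous in ZNF599 (5 of 5), ZNF577 (5 of 5), ZNF844 (4 of 4) and ZNF208 (4 of 4, a gene at a locus linked to telomere length), with ZNF726 and ZNF814 tied at 4 of 4, and gained ones in ZNF180 (3 of 4), ZNF676 and ZNF492 (2 of 2 each). ZNF577 was thus gained whole under the label OVCAR8 knockdown and lost whole under the label SKOV3 knockdown.

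In LOVO, lost regions were most numerous in ZNF600 (4 of 8), ZNF761 (4 of 7), ZNF441 (3 of 3) and ZNF701 (3 of 6), and gains were 3 of 6 in ZNF317 and 2 in each of ZNF574 and ZNF83. ZNF441 had 0 peaks in LOVO knockdown against 3 in LOVO control, but also 0 in every OVCAR8 list and in SKOV3 knockdown. In RKO, lost regions were most numerous in ZNF83 (11 of 17), ZNF208 and ZNF577 (7 of 7 and 7 of 11) and ZNF69 (3 of 7, tied with others at 3). Gained ones were most numerous in ZNF324B (9 of 14), ZNF227 (7 of 11), ZNF528 (7 of 7), ZNF667 (7 of 7) and ZNF497 (7 of 9). ZNF528 had 7 peaks in RKO knockdown, 1 and 1 in SKOV3 control and 0 in the other 9 lists.

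Peaks per gene were tested in the 8 ovarian lists with limma on log2(peaks + 1), with Benjamini-Hochberg adjustment over the 8018 genes that had 8 or more peaks in all. Of the members, 156 passed that filter, and the 90 others were not tested. The filter sums the same 8 lists, so some members passed it only through the group where their peaks were many. Calls of such members, and the shares below that include them, depend on that choice. Differences on this scale are not folds of methylation, and the small p-values rest on a spread pooled over genes. In OVCAR8, knockdown minus control, 38 members rose (24.4%, against 12.9% of all genes tested) and 18 fell (11.5%, against 37.2%). The median difference was 0 in members and -0.29 over all genes. Without the first OVCAR8 control list, 11 fell. With each list reduced to the same number of strongest peaks, limma tested 124 members, of which 30 rose and 0 fell (0 also at an unadjusted p below 0.05). With bases covered in place of peaks 50 fell, and with lists scaled to the same number of peaks in genes 71 rose and 6 fell. For alternative settings, here and below, the shares over all genes tested are not given. Those counts therefore do not show whether members differ from all genes.

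ZNF347 rose by 2.45 ± 0.30 (SE) on the log2(peaks + 1) scale (limma, adjusted p = 6.03e-15), with 5 and 4 peaks in OVCAR8 knockdown against 0 and 0 in control. ZNF577 rose by 2.45 ± 0.32 (limma, adjusted p = 8.24e-14), with 5 and 4 against 0 and 0. ZNF850 had 4 and 4 against 0 and 0, and ZNF43 had 3 and 4 against 0 and 0. These 4 members were picked by the lowest p of this contrast, so the separation of their OVCAR8 lists follows from that choice. They were also without a peak in both libraries labelled SKOV3 knockdown. In SKOV3 control, ZNF347 had 2 and 2 peaks, ZNF850 3 and 1 and ZNF43 2 and 2. ZNF347, ZNF850 and ZNF43 therefore passed the filter of 8 peaks only through OVCAR8 knockdown.

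Among members that fell, ZNF616 had 0 and 0 peaks in OVCAR8 knockdown against 4 and 4 in control, a difference of -2.32 ± 0.31 (limma, adjusted p = 6.11e-13). ZNF780A had 0 and 0 against 3 and 4, ZNF550 had 0 and 0 against 2 and 2, and ZNF28 had 1 and 1 against 4 and 4. These 4 members too were picked by the lowest p of this contrast, so the separation of their lists follows from that choice. ZNF28 had a difference of 0 with equal numbers of peaks per list. ZNF780B, the neighbour of ZNF780A, had 6 and 7 peaks in OVCAR8 knockdown against 5 and 6 in control.

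In SKOV3, knockdown minus control, 4 members rose (2.56%, against 22.6% of all genes tested) and 43 fell (27.6%, against 20.1%). The median difference was -0.16 in members and 0 over all genes. Without the first SKOV3 control list, 27 fell, and with equal numbers of peaks per list 21 of 124 fell and 0 rose by limma (3 at an unadjusted p below 0.05). ZNF599 had 0 and 0 peaks in SKOV3 knockdown against 6 and 6 in control, a difference of -2.81 ± 0.30 (limma, adjusted p = 2.62e-19; 0.055 with equal numbers of peaks). ZNF208 had 0 and 0 against 5 and 5, ZNF577 had 0 and 0 against 5 and 5, and ZNF844 had 0 and 0 against 4 and 4. These 4 members were picked by the lowest p of this contrast, so the separation of their lists follows from that choice. In OVCAR8 knockdown, ZNF599 had 2 and 2 peaks, ZNF208 2 and 1 and ZNF844 3 and 2, with 0 in OVCAR8 control. ZNF599, ZNF208 and ZNF844 therefore passed the filter of 8 peaks only through SKOV3 control.

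The 4 members that rose in SKOV3 were ZNF180, ZNF616, ZNF8 and ZNF266. ZNF180 had 4 and 4 peaks in knockdown against 1 and 1 in control, a difference of 1.32 ± 0.28 (limma, adjusted p = 8.06e-06; 0.22 with equal numbers of peaks). ZNF616 had 3 and 4 against 1 and 1, and ZNF8 had 3 and 3 against 1 and 1. ZNF266 had 3 and 2 against 1 and 1, and its adjusted p was 0.24 without the first SKOV3 knockdown list, 0.074 and 0.077 without either control list (limma). Its difference turned to -0.31 with bases covered in place of peaks.

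The OVCAR8 minus SKOV3 difference of these effects was tested as an interaction, in which 44 members were higher (28.2%, against 19% of all genes tested) and 15 lower (9.62%, against 35.9%). The lower count was 0 with equal numbers of peaks (0 also at an unadjusted limma p below 0.05), 35 with bases covered and 6 with scaled lists, and the higher count was 75 with no filter. The difference was 5.04 ± 0.45 for ZNF577 (limma, adjusted p = 2.71e-28) and -3.48 ± 0.44 for ZNF616 (limma, adjusted p = 1.05e-14). The control lists of the lines were compared too. OVCAR8 control minus SKOV3 control was higher in 8 members (5.13%, against 24.2% of all genes tested) and lower in 47 (30.1%, against 22.8%). Without a single list the 8 became 3 (second OVCAR8 control list) or 5 (first OVCAR8 or second SKOV3 control list). ZNF599, ZNF208, ZNF577 and ZNF844 had 0 and 0 peaks in OVCAR8 control against the SKOV3 control values above. ZNF616 had 4 and 4 in OVCAR8 control against 1 and 1 in SKOV3 control, and ZNF180 had 4 and 5 against 1 and 1. Both knockdown comparisons share these control lists with it.

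Of the 12 genes listed as partners of KRAB zinc-finger proteins, 7 passed the filter. In OVCAR8, knockdown minus control, 2 of the 7 fell by limma (CHD4, adjusted p = 4.01e-19, and HDAC1, adjusted p = 3.24e-08) and the other 5 did not pass, where 37.2% of all genes tested fell. In SKOV3, knockdown minus control, CHD4 and HDAC1 rose (limma, adjusted p = 3.48e-25 and 5.04e-06) and DNMT1, the maintenance DNA methyltransferase, fell (adjusted p = 0.0069), where 22.6% of all genes tested rose and 20.1% fell. CHD4, an ATPase of the NuRD complex, had 1 and 0 peaks in OVCAR8 knockdown against 8 and 8 in control, 8 and 7 in SKOV3 knockdown against 0 and 0 in control, 5 in LOVO knockdown against 4, and 0 in RKO knockdown against 6. HDAC1, a histone deacetylase, had 0 and 0 in OVCAR8 knockdown against 2 and 3, and 1 and 3 in SKOV3 knockdown against 0 and 0. TRIM28, the corepressor itself, had 0 or 1 peak in every list, and SETDB1 had 2 to 5. UHRF1, which guides maintenance of DNA methylation, had 5 to 9 in the ovarian lists, 5 in LOVO knockdown against 2 and 5 in RKO knockdown against 6.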

How the data were processed

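MeRIP-seq peak lists of chromatin-associated RNA (12, from 4 cell lines) were analysed; the input libraries were left out. Tools named, without role or order, per the submitters' processing notes are MACS2 2.2.7.1, HISAT2 2.1.0, Bowtie2 2.4.2 and Trim Galore 0.6.6, with the build hg38. In the ovarian lists the authors deposited a fold enrichment (a linear ratio) and −log10 p and q values per peak and library. For LOVO and RKO they deposited 1 list per group with a score that no header explains. No label says how replicate 2 entered those lists. Folds, scores and p values served only to rank or filter peaks within a list.

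Members came from the RefSeq table of GRCh38.p14. Overlaps were computed with bedtools 2.31.1. Peaks per gene were tested with limma 3.58.1 (R 4.3.3; trend and robust) on log2(peaks + 1), pseudocount 1, a filter of 8 peaks over the 8 ovarian lists and a threshold of 0.05. Tested on simulated data, the plain fit called unchanged genes with equal counts, so each gene's variance was floored at the mean of its 20 level bins; the fit without the floor is an alternative. Replicate numbers did not pair the lists (correlations of deviations of 0.0037 to 0.027). The members and lists were chosen with earlier results of these data known. Named members follow a written rule. It takes the highest mean peak number, widest peaks, most lost or gained regions per line and lowest p per contrast and direction. It also takes peaks in all or no lists and the top of each cluster. ZNF93, ZNF420, ZNF567, ZNF667, ZNF497, ZNF726, ZNF814, ZNF841, ZNF146, ZNF132, ZNF700, ZNF541 and ZNF534 were named outside it, after their values were seen. Protein sequences and exons were not analysed here. Tables and figures used Python 3.11.15.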

Additional observations from a re-analysis of the deposited data

Results flagged for a closer look

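The labelled knockdown effects differed between OVCAR8 and SKOV3 by the limma interaction (log2(peaks + 1), OVCAR8 effect minus SKOV3 effect) in 8 named members. The difference was 5.04 in ZNF577, 4.39 in ZNF599, 4.11 in ZNF844 and 4.04 in ZNF347, and it was -3.48 in ZNF616, -2.58 in ZNF780A, -1.98 in ZNF180 and -1.58 in ZNF223. The 8 were picked by the lowest p of that interaction in each direction, so the size of their differences follows in part from that choice. The lists compared are those whose labels and peaks are at odds, and each effect shares its line's control lists. The total of peaks in members differed by 0.23 in OVCAR8 and -0.67 in SKOV3, and by 0.47 in RKO and -0.20 in LOVO (log2, knockdown minus control). The LOVO value has a counting interval of -0.45 to 0.05, lies near the -0.22 over all peaks of the LOVO lists and is 0.073 with equal numbers of peaks. The difference between lines in these totals was not tested. No group held enough lists for a single outlying list to be sought.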

How the results depend on the processing

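Needing an overlap of 50% of a region moved the share of control regions lost to 34.4% (OVCAR8), 54.1% (SKOV3), 43.01% (LOVO) and 37.9% (RKO). Taking regions of any control list gave 27.99% in OVCAR8 and 48.5% in SKOV3. With an equal number of strongest peaks per list, 9.15% were lost in OVCAR8 and 24.7% in LOVO, and the log2 difference in member peaks was 1.002 in OVCAR8, -0.52 in SKOV3 and 0.073 in LOVO, where the sign turned against -0.20. A stricter threshold gave 38.9% lost in LOVO and a log2 difference of 0.88 in RKO. In these lines the threshold was a cut on the unexplained score. The median score was higher in the RKO knockdown list than in RKO control, so the same cut need not keep the same share of each. Whether the 0.88 reflects this difference in scores was not tested. Leaving out peaks in several genes, or keeping own-strand peaks only, gave log2 differences of 0.26 and 0.26 in OVCAR8.

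Counts of members called by limma moved with several choices. With equal numbers of peaks per list, 0 fell in OVCAR8, 0 rose and 21 fell in SKOV3, 0 were lower in the interaction, and 0 were higher and 28 lower in the control comparison (at an unadjusted limma p below 0.05 the zeros were 0, 3, 0 and 1). With bases covered in place of peaks, 50 fell in OVCAR8, 2 rose in SKOV3, 35 were lower in the interaction, and 3 were higher and 79 lower between controls. Lists scaled to the same number of peaks in genes gave 71 risen and 6 fallen in OVCAR8 and 6 lower in the interaction. With no filter beyond 1 peak, 8 rose and 86 fell in SKOV3, 75 were higher in the interaction and 91 lower between controls. Leaving out peaks in several genes, 10 fell in OVCAR8, with a pseudocount of 0.5, 5 were higher between controls, and with no floor on the variance (chosen after seeing the data), 12 rose in SKOV3. Shares over all genes tested under these settings are not given here, so the counts describe members only. The cause of these shifts was not tested.

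With the replicate number as a block, the counts were again 38 risen and 18 fallen in OVCAR8, 4 and 43 in SKOV3, 44 and 13 in the interaction (15 lower without it), and 8 and 47 between controls. It changed no call of the named members. Leaving out 1 list at a time gave 30 to 41 risen and 11 to 20 fallen in OVCAR8, 3 to 6 and 27 to 49 in SKOV3, 32 to 49 and 10 to 16 in the interaction, and 3 to 10 and 38 to 51 between controls. It gave 22.8% to 26.1% lost and a log2 difference of 0.21 to 0.25 in OVCAR8, and 44.7% to 46.2% and -0.70 to -0.63 in SKOV3. Among single members, the sign turned for ZNF430 between controls (-1 with equal peaks, -1.90 with bases covered) and for ZNF266 with bases covered (-0.53 between controls, -0.31 in SKOV3). Of the 32 limma results of named members, 13 still passed with equal numbers of peaks, 8 did not and 1 turned in sign. The rest of the 32 were not tested under that setting. With bases covered, 26 still passed, 3 did not and 3 turned in sign. A gap of 2 Mb gave 8 clusters.

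The number of peaks depends on depth and on the caller's threshold, read totals are unknown here, and LOVO and RKO have no replicates.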
